A study of Mus musculus with 18 samples.

Results

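The genes described here are the mouse translation initiation factor genes, taken as the protein-coding RefSeq genes whose symbol starts with Eif. There were 56 of them among 21900 protein-coding genes with a position, and 54 held at least 1 chimeric read, a read in which a miRNA is joined to a piece of its target RNA. A read was counted for such a gene when the midpoint of its target piece lay in that gene and in no other protein-coding gene, which gave 3789 of 1153545 reads. The symbols alone chose the genes. Eif4a3l1 and Eif4e1b had no read, and 17 genes had fewer than 20, counting these.

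CLEAR-CLIP was done on cultured mouse keratinocytes, the main cells of the epidermis, grown in E-low calcium medium: Argonaute 2 was precipitated after UV crosslinking, and each miRNA was ligated to the RNA it sat on. Set 1 held 3 libraries of miR-200 double knockout (DKO) keratinocytes and 6 control libraries of keratinocytes with K14-Cre only. Set 2 held 3 DKO libraries, 3 libraries of miR-200 inducible keratinocytes given doxycycline at 3 ug/ml for 24 hours, and 3 control libraries of the same inducible cells without induction. K14-Cre is a recombinase under a keratin promoter active in basal keratinocytes. The set 2 control therefore differed from the DKO cells in carrying the inducible construct, and no doxycycline-treated cells without the construct were analysed here. Whether the DKO cells carried Cre, and whether libraries of a group came from separate animals or clones, is not stated in the labels. The libraries of each group are pooled in the deposited data, so each group counted as 1 sample, no test between groups was made, and every interval is an exact 95% interval for counting error only. Each set was sequenced in a run of its own, so a difference between sets cannot be told apart from a difference between runs.

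The pools held 48662 reads (set 1 DKO), 161692 (set 1 control), 210003 (set 2 DKO), 419117 (set 2 induced) and 314071 (set 2 uninduced). All 11 keratinocyte markers had reads in the data, with a summed level of 2789 to 5357 RPM, chimeric reads scaled to a pool total of 1000000. Of 7 fibroblast markers 2 had reads (0 to 31.8 RPM), with Col1a1, Col1a2, Col3a1, Dcn and Lum at 0. Melanocyte, immune and endothelial markers had reads for 3 of 5, 1 of 4 and 3 of 4, with summed levels of at most 61.6 RPM. Chimeric reads count a miRNA on a target, so a gene's level here mixes how much of its RNA was present with how often a miRNA was ligated to it, and these cannot be told apart without RNA levels, which were not analysed here.

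Translation initiation is the step at which a ribosome is brought to the start of a messenger RNA. The cap-binding protein eIF4E, the scaffold eIF4G and the helicase eIF4A load the mRNA, eIF3 bridges it to the small ribosomal subunit, and eIF2 carries the initiator tRNA, with eIF2B recharging eIF2 and the eIF2 kinases blocking that recharging under stress. The eIF4E-binding proteins, of which Eif4ebp2 encodes one, block eIF4E from binding eIF4G and are released from it when the mTOR kinase phosphorylates them. In skin the rate of protein synthesis is known to differ between stem cells and their progeny.

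The miRNAs that the results below turn on are shown first, each from its 5′ to its 3′ end with the seed (bases 2 to 8, the part that usually pairs with a target) in capitals; the sequences are RefSeq's for the GRCm38.p6 build, in which 27 of 28 names sought were found. The first is miR-31, which held the most reads on these genes.
miR-31-5p: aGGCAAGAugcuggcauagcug
The members of the miR-200 family fall into 2 seed groups. The first is the miR-200b seed group.
miR-200b-3p: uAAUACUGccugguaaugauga
miR-200c-3p: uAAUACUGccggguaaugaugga
miR-429-3p: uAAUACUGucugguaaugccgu
The other is the miR-200a seed group.
miR-200a-3p: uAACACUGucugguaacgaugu
miR-141-3p: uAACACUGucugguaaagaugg
Among the seed groups whose members met at 1 position of an Eif gene were let-7, miR-27 and miR-29.
let-7a-5p: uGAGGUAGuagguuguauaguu
let-7b-5p: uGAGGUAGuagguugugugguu
let-7e-5p: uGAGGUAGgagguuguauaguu
miR-27a-3p: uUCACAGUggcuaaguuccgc
miR-27b-3p: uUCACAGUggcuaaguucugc
miR-29a-3p: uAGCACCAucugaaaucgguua
miR-29b-3p: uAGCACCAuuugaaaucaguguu
The remaining ones led a gene or a position by themselves.
miR-205-5p: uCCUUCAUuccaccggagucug
miR-203-3p: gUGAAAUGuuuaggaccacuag
miR-23a-3p: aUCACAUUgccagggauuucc
miR-3470b: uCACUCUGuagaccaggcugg
miR-3473b: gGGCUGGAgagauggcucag
miR-6380: uGUAAGUGcuuuuaacugcugagc
miR-6990-3p: aGCCCUGCcucuuccuggcag

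Initiation factor genes took a similar small share of the reads in 4 pools and a smaller one in the set 1 DKO pool. The share was 0.245% (119 reads; 0.203 to 0.293) in set 1 DKO, against 0.352% (569 reads; 0.324 to 0.382) in set 1 control. It was 0.314% (660 reads; 0.291 to 0.339) in set 2 DKO, 0.334% (1398 reads; 0.316 to 0.351) in set 2 induced and 0.332% (1043 reads; 0.312 to 0.353) in set 2 uninduced. The ratio of DKO to control was thus 0.695 (0.565 to 0.848) in set 1 and 0.946 (0.857 to 1.04) in set 2, where the interval includes 1. The induced over uninduced ratio was 1.00 (0.926 to 1.09). For the other protein-coding genes the same ratios were 0.972, 1.03 and 1.02. The lower share in set 1 DKO rests on the shallowest pool. In that pool 12.6% of the Eif reads had a copy in the other pool of the set, against 2.64% in set 1 control. A copy means the same position, strand, miRNA and barcode. On other protein-coding genes these percentages were 12.5% and 3.65%. In set 1 a copy pairs 1 read of each pool, so the percentage is larger in the smaller pool. Without reads that had a copy the ratio was 0.716 (0.575 to 0.884).

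Reads were unevenly spread over the genes. The 9 genes with at least 100 reads held 2130 reads, 56.2% of all on Eif genes; the lowest of them had 110 reads and the highest gene below the limit, Eif4enif1, had 91. By role, the 3 eIF4G scaffolds had 980 reads (25.9%), the 14 eIF3 subunits 860 (22.7%), the 4 eIF4E inhibitors and transporter genes 544 (14.4%) and the 4 genes of eIF5, subunit joining and eIF5A 277 (7.31%). The 4 eIF2 kinases had 208 reads, the helicase cofactors Eif4b and Eif4h 195, the cap-binding eIF4E genes 150, the eIF1 and eIF1A genes 145, the eIF2 subunits 141, the eIF4A helicases 133, eIF6 67 and the 5 eIF2B subunits 50. The median over the 54 Eif genes with a read was 39.5 reads, against 17 over the 13616 protein-coding genes with a read, and at least 100 reads were held by 16.7% of these Eif genes and by 17.7% of the protein-coding genes with a read.

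The scaffold genes led. Eif4g3, which encodes a second form of eIF4G, had 402 reads and ranked 377 among protein-coding genes; it had 22 reads (452 RPM) in set 1 DKO, 129 (798 RPM) in set 1 control, 57 (271) in set 2 DKO, 99 (236) in set 2 induced and 95 (302) in set 2 uninduced. Its level was higher in both set 1 pools than in any set 2 pool, and in the set 1 control pool also beyond the counting intervals. Eif4g2, an eIF4G relative that lacks the eIF4E-binding part and serves cap-independent initiation, had 387 reads: 7 (144 RPM) and 31 (192) in set 1 DKO and control, then 55 (262), 175 (418) and 119 (379) in set 2 DKO, induced and uninduced. It was the most densely covered of the 56 per length of gene, with 25.7 reads per kilobase of gene span, against 1.87 for Eif4g3. Eif4g1, the main eIF4G, had 191 reads: 12 (247 RPM) and 29 (179) in set 1 DKO and control, and 51 (243), 61 (146) and 38 (121) in set 2 DKO, induced and uninduced. In both sets its level was higher in the DKO pool than in the control pool, with intervals that overlap in set 1.

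Among the regulators of eIF4E, Eif4ebp2 had 375 reads: 9 (185 RPM) in set 1 DKO, 26 (161) in set 1 control, 58 (276) in set 2 DKO, 168 (401) in set 2 induced and 114 (363) in set 2 uninduced. Of its relatives, Eif4ebp1 had 71 reads and Eif4ebp3 had 7. These 2 genes and Eif4enif1, which encodes the 4E-transporter that carries eIF4E to the nucleus, were named after their values were seen.

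The eIF3 subunits with at least 100 reads were Eif3h, Eif3c and Eif3a. Eif3h had 246 reads: 9 (185 RPM) and 57 (353) in set 1 DKO and control, and 46 (219), 76 (181) and 58 (185) in set 2 DKO, induced and uninduced. Eif3c, part of the eIF3 core, had 149: 4 (82.2) and 13 (80.4) in set 1, and 12 (57.1), 56 (134) and 64 (204) in set 2 DKO, induced and uninduced. Eif3a, the large core subunit, had 147: 4 (82.2) and 21 (130) in set 1, and 30 (143), 53 (126) and 39 (124.2) in set 2, in the same order. Only Eif3c of these 3 had its lowest set 2 level in DKO. The other 11 eIF3 genes had 4 to 57 reads.

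Eif4b, a cofactor of the eIF4A helicase, had 123 reads: 4 (82.2 RPM) and 14 (86.6) in set 1 DKO and control, and 34 (162), 38 (90.7) and 33 (105) in set 2 DKO, induced and uninduced. Eif5b, the GTPase that joins the ribosomal subunits, had 110: 3 (61.6) and 22 (136) in set 1, and 24 (114), 40 (95.4) and 21 (66.9) in set 2. Another 57 reads in the span of Eif5b also lay in another protein-coding gene and were not counted.

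**Figure D1:**
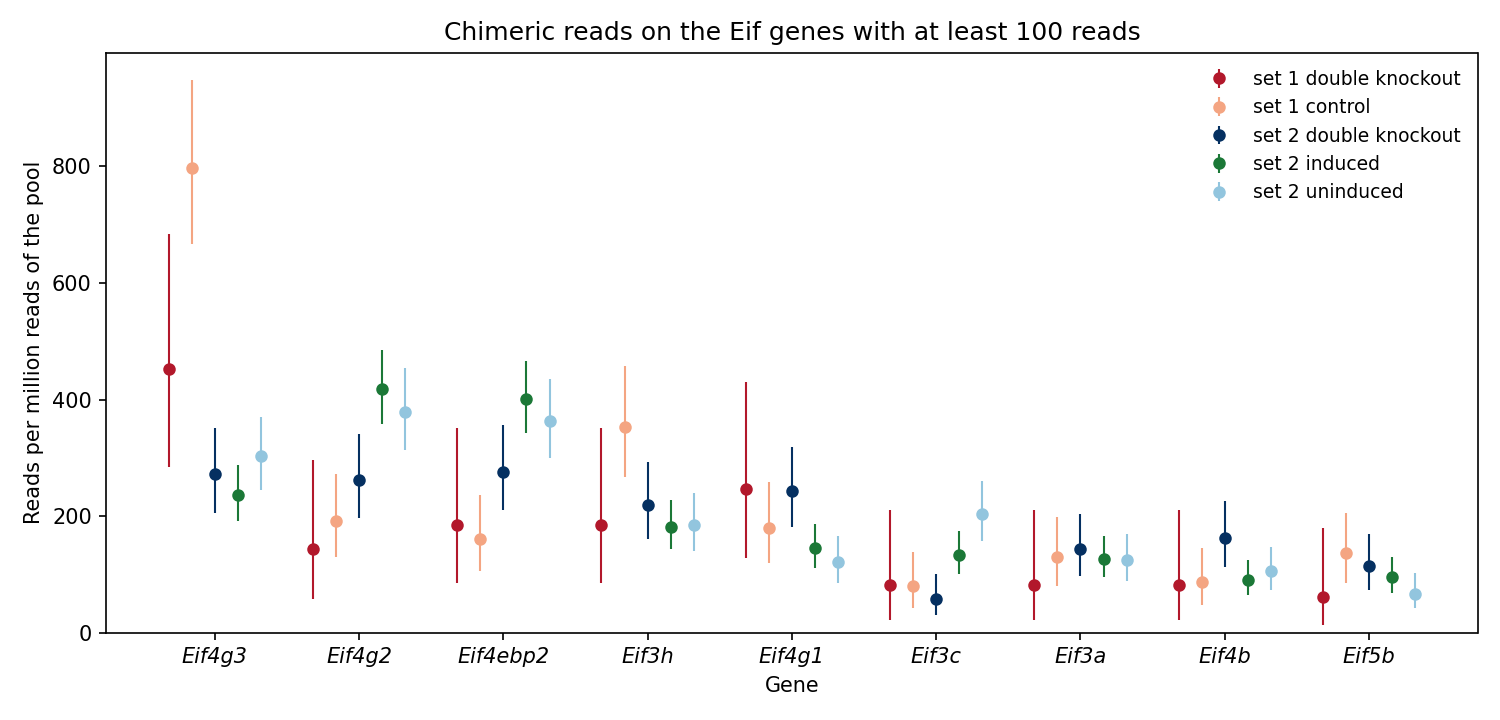
RPM, chimeric reads per pool total of 1000000 (vertical axis), for the 9 Eif genes with at least 100 reads (horizontal axis); points are pools, with exact 95% counting intervals. Eif4g3 was highest in set 1 control at 798 RPM, while Eif4g2 and Eif4ebp2 were highest in the induced pool at 418 and 401 RPM.

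miR-31, a miRNA abundant in keratinocytes, was the leading miRNA on these genes, and much of that came from Eif4ebp2. It had 545 reads on 43 Eif genes and was the leading miRNA of 14 of the 39 Eif genes with at least 20 reads; miR-21a-5p led 8. Its share of Eif reads was 10.9% in set 1 DKO, 5.62% in set 1 control, 13.2% in set 2 DKO, 18.0% in set 2 induced and 15.4% in set 2 uninduced. Relative to its share on other protein-coding genes this was 1.96 (1.04 to 3.35), 1.26 (0.859 to 1.78), 1.57 (1.26 to 1.94), 1.49 (1.31 to 1.69) and 1.28 (1.09 to 1.49) times. Without Eif4ebp2, an alternative chosen after seeing the data, the ratio was 0.977 (0.358 to 2.13) in set 1 DKO, 1.17 (0.889 to 1.51) in set 2 DKO, 0.970 (0.818 to 1.14) in set 2 induced and 0.854 (0.692 to 1.04) in set 2 uninduced. In set 1 control miR-31 then had 25 of 543 Eif reads (4.60%), against a share of 4.47% on other protein-coding genes.

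On Eif4ebp2, miR-31 had 215 of 375 reads (57.3%; 52.2 to 62.4): 7 of 9 in set 1 DKO, 7 of 26 in set 1 control, 28 of 58 in set 2 DKO, 108 of 168 in set 2 induced and 65 of 114 in set 2 uninduced. miR-31 held 10.1% of the reads on other protein-coding genes. Eif4ebp2 ranked 16 among 8150 protein-coding genes by miR-31 reads. By pool its rank was 21 of 932 in set 1 DKO, 79 of 2413 in set 1 control, 24 of 4293 in set 2 DKO, 11 of 6304 in set 2 induced and 20 of 5611 in set 2 uninduced. Other Eif genes with a high miR-31 share, named after their values were seen, were Eif3l (17 of 41 reads), Eif2d (12 of 22) and Eif4g1 (40 of 191).

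The other leading miRNAs were spread more thinly. miR-21a-5p had 239 reads on 42 Eif genes, miR-27a-3p 154 on 33, miR-205-5p 146 on 34, miR-3470b 118 on 17, miR-125b-5p 111 on 34, miR-23a-3p 100 on 35, miR-24-3p 77 on 26, miR-16-5p 64 on 25 and miR-3473b 49 on 8. Of the 46 miRNAs with at least 20 reads on Eif genes, 1 (2.17%) was at least 2-fold higher there than on other protein-coding genes in all 5 pools. None was at least 2-fold lower in all 5. A miRNA depleted on Eif genes reaches that limit of reads less easily, so the counts higher and lower cannot be compared. The higher one was miR-6380, with 34 reads on 8 genes, 14 of them on Eif3h. Its ratios were 2.14 (0.258 to 7.81) in set 1 DKO and 2.11 (1.25 to 3.35) in set 1 control, on 2 and 18 reads. In set 2 they were 3.42 (0.700 to 10.1) in DKO, 3.18 (1.27 to 6.60) in induced and 2.73 (0.740 to 7.06) in uninduced, on 3, 7 and 4 reads. The interval included 1 in both DKO pools and in set 2 uninduced. In set 1 control, Eif3h held 11 of the 18 miR-6380 reads, and 10 of these lay in chr15:51826702-51826804. No ratio without Eif3h was computed.

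On the other genes with at least 100 reads the leader had fewer reads. miR-31 led Eif4g2 with 36 reads, Eif4g1 with 40 and Eif3h with 26. On Eif4b, miR-205-5p had 23 reads, with 3 in set 1 DKO, 2 in set 1 control, 6 in set 2 DKO, 9 in set 2 induced and 3 in set 2 uninduced. On Eif5b, miR-3473b had 18, of which 13 came from set 1. On Eif3c, let-7a-5p and miR-31 had 13 each, and all 13 let-7a reads came from the induced (6) and uninduced (7) pools. On Eif3a, miR-182-5p, miR-31 and miR-467e-5p had 11 each.

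miR-3470b, miR-3473b and 5 other miRNAs with many more reads in set 1 (miR-1195, miR-7667-5p, miR-706, miR-709 and miR-3470a) moved with the set. Together they held 21.8% of Eif reads in set 1 DKO and 32.2% in set 1 control, but 3.64%, 3.36% and 2.59% in set 2 DKO, induced and uninduced; on other protein-coding genes they held 19.9%, 30.3%, 2.87%, 2.60% and 2.40%. On Eif4g3 they gave 14 of 22 reads in set 1 DKO and 62 of 129 in set 1 control, against 8 of 57, 9 of 99 and 11 of 95 in set 2. On Eif5b they gave 13 of 22 reads in set 1 control and on Eif4enif1 25 of 28. miR-3470b alone had 38 reads on Eif4g3 and 36 on Eif4enif1, 23 and 20 of them in set 1 control. Eif3c had none of these 7 miRNAs, and Eif4g2 had 3 reads.

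**Figure D2:**
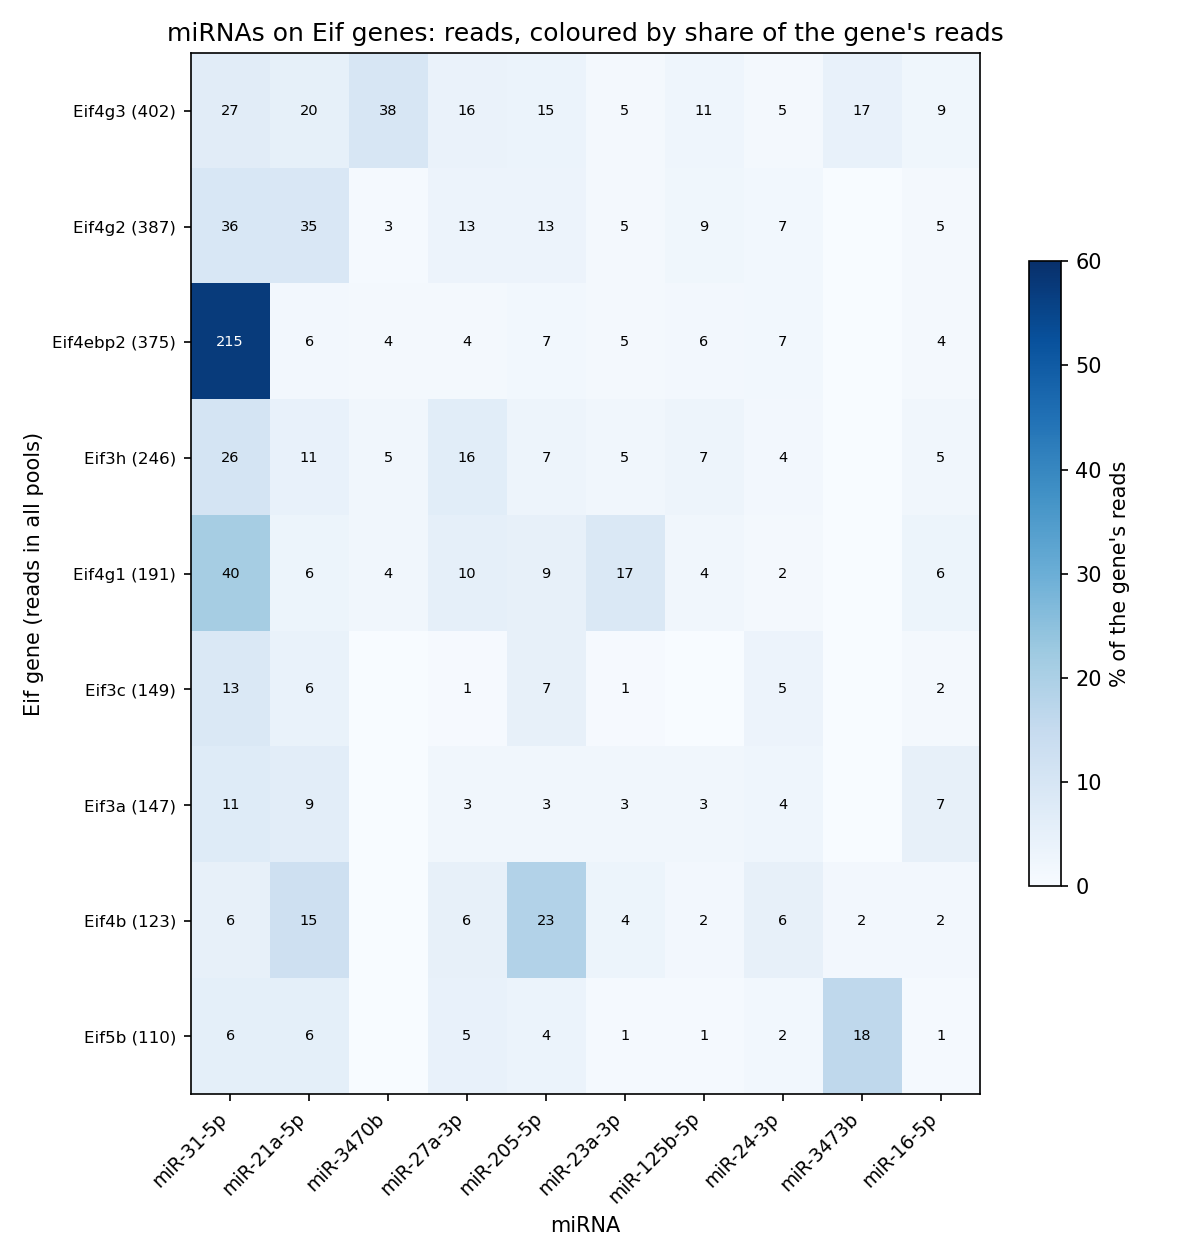
Reads of the 10 leading miRNAs (horizontal axis) on the Eif genes with at least 100 reads (vertical axis, with the gene's reads in all pools); numbers are reads and colour is the percentage of the gene's reads. The darkest cell is miR-31-5p on Eif4ebp2 with 215 reads, and miR-3473b has 18 reads on Eif5b and none on 6 of the 9 genes.

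Grouping overlapping target pieces on 1 strand gave 1626 sites in the Eif genes. A site's depth is counted as distinct combinations of start, end and miRNA over all pools. A combination can thus hold several reads, with different barcodes or from different pools, and is not a count of molecules. At depth 10 or more there were 23 sites with 20.6% of the reads, while 68.9% of sites held a single combination. Positions count from 1 on mm10. Neither the transcript region of a site nor a seed match in it was analysed here, since no genome or exon annotation of the build was used.

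The site with the most reads lay in Eif4ebp2 on the minus strand at chr10:61431408-61431655, with its middle 3040.5 bases before the gene's 3′ end. Its 202 reads came from 56 combinations, and miR-31 gave 187 of them (92.6%; 88.0 to 95.8) in 42 combinations. The miR-31 reads numbered 4 in set 1 DKO, 6 in set 1 control, 22 in set 2 DKO, 100 in set 2 induced and 55 in set 2 uninduced, so the site was seen in every pool. A further 17 miR-31 reads lay in the bin that starts 500 bases from the 3′ end of the gene. Another Eif4ebp2 site, at chr10:61432816-61432873, had 17 reads, 15 of them with miR-203-3p, a miRNA of keratinocyte differentiation; it was named after its values were seen.

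The site with the most combinations lay in Eif4g2 on the minus strand at chr7:111071940-111072411, with 158 reads, 130 combinations and 41 miRNAs. The miR-200b seed group gave 52 of its reads (32.9%; 25.7 to 40.8), the let-7 seed group 24 and the group of miR-17-5p, miR-20a-5p and miR-93-5p 17. By pool the site had 0 reads in set 1 DKO, 15 in set 1 control, 13 in set 2 DKO, 77 in set 2 induced and 53 in set 2 uninduced. It is joined by short overlaps. When pieces had to overlap by at least 10 bases, it split into chr7:111072043-111072411 with 139 reads and chr7:111071940-111072049 with 19. A second Eif4g2 site at chr7:111077382-111077504 had 21 reads, 8 of them with miR-141 and 5 with miR-31. One more at chr7:111076146-111076228 had 52 reads from 25 miRNAs, led by miR-21a-5p with 11, and all 52 lay within an annotated snoRNA gene inside Eif4g2. Over the whole gene, 57 of 387 Eif4g2 reads lay in that snoRNA gene.

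**Figure D3:**
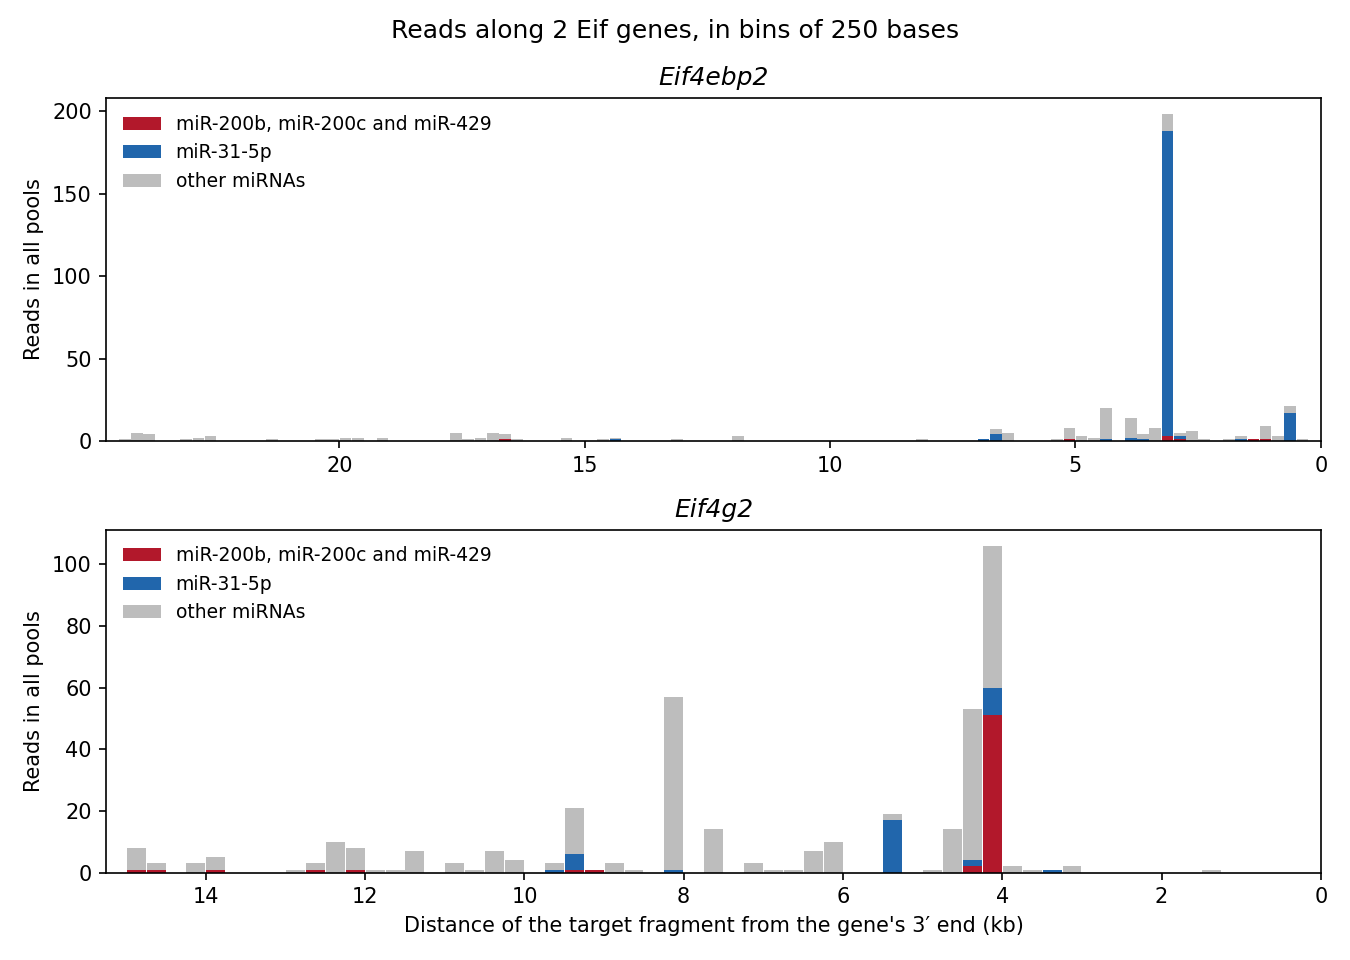
Reads of all pools in bins of 250 bases (vertical axis) by distance from the gene's 3′ end in kb (horizontal axis) along Eif4ebp2 (top) and Eif4g2 (bottom), with miR-31-5p and the miR-200b seed group in colour. One Eif4ebp2 bin held 185 miR-31 reads, and 1 Eif4g2 bin held 51 reads of that seed group.

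Of the other deep sites, that of Eif6 was dominated by 1 seed. At those of Eif5, Eif3f and Eif4b the leading seed gave 51.9%, 50% and 52.4% of the reads. In Eif6, whose product keeps the ribosomal subunits apart, the site at chr2:155825359-155825423 had 31 reads and 28 of them came from 8 members of the let-7 seed group. In Eif5, the GTPase-activating partner of eIF2, the site at chr12:111544526-111544785 had 27 reads, 14 of them with the miR-27 seed. In Eif3f, an eIF3 subunit, the site at chr7:108941467-108941599 had 22 reads, of which 11 were miR-27a-3p and 6 were miR-24-3p. In Eif4b, the site at chr15:102096588-102096851, with its middle 453.5 bases before the gene's 3′ end, had 21 reads, of which 11 were miR-205-5p and 5 were miR-18a-5p. It was seen in all 5 pools.

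In Eif4g1 the site at chr16:20679399-20679530 had 53 reads from 7 miRNAs: miR-31 gave 28, miR-23a-3p 14 and miR-23b-3p 5. In Eif3a the site at chr19:60779425-60779505 had 24 reads, 7 of them with miR-467a-5p and 4 each with miR-467c-5p and miR-467e-5p, all from set 2 induced (13) and uninduced (11). Next in depth, and named after its values were seen, was a site of Eif5a at chr11:69919187-69919306 with 18 reads, of which 14 carried the miR-29 seed. Eif5a also held 17 of the 32 reads of miR-6990-3p in the whole data; they lay within chr11:69917075-69917110 on 3 pairs of start and end, with 0 in set 1 DKO, 7 in set 1 control, 4 in set 2 DKO, 3 in set 2 induced and 3 in set 2 uninduced.

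In the miR-200 double knockout of set 1, no Eif gene passed the fold upward. Of 9 Eif genes with at least 20 reads in the 2 pools, 0 had at least 2-fold higher RPM in DKO, against 8.26% of all protein-coding genes at that depth, and 2 had at least 2-fold lower RPM, against 17.6%. The 2 were Eif4e, the cap-binding protein (2 reads in DKO and 18 in control; ratio 0.369, 0.0415 to 1.54), and Eif5b (3 and 22; 0.453, 0.0868 to 1.51); both intervals include 1. With each position counted once, or without the 7 miRNAs more frequent in set 1, both had fewer than 20 reads; Eif4e had fewer than 20 also without the set 1 reads whose names start with a > sign, and Eif5b had a ratio of 0.593 without targets in noncoding genes. The median ratio of the 9 genes was 0.633, and that of all genes at that depth 0.886. The interval lay below 1 for Eif4g3 (22 reads in DKO and 129 in control; 0.567, 0.343 to 0.895). Without the 7 miRNAs, which gave 14 and 62 of these reads, its ratio was 0.352 (0.146 to 0.733), past the fold, and so was that of Eif3h, at 0.376 (0.131 to 0.881) against 0.525 (0.228 to 1.07) with them. Without reads shared between the pools of the set, Eif3h was past the fold at 0.485.

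In the double knockout of set 2, 2 of 26 Eif genes had at least 2-fold higher RPM than in uninduced cells, against 9.57% of all genes, and 2 had at least 2-fold lower RPM, against 11.2%. The higher ones were Eif4enif1 (15 reads in DKO and 8 in uninduced; 2.80, 1.12 to 7.64) and Eif4g1 (51 and 38; 2.01, 1.29 to 3.14). Eif4g1 was under the fold with each position counted once (1.81), over protein-coding reads (1.95) and without targets in noncoding genes (1.94), and in that last setting Eif5b was past it (2.03, against 1.71 with them). Eif4enif1 had fewer than 20 reads with each position counted once and without the 7 miRNAs. The lower ones were Eif3c (12 and 64; 0.280, 0.138 to 0.524) and Eif3j1 (6 and 20; 0.449, 0.147 to 1.16). The median was 1.07, against 1.02 over all genes. In set 1 Eif4g1 had a ratio of 1.37 (0.639 to 2.78), and Eif4enif1 one of 0.712 (0.241 to 1.75). Only 9 Eif genes had at least 20 reads in both DKO comparisons, and 0 of them passed the fold the same way in both; of the 2084 protein-coding genes at that depth, 0.624% were higher and 1.3% lower in both. Eif3c had 4 and 13 reads in the set 1 DKO and control pools, too few for the limit. Eif4g2, with 55 and 119 reads, had a ratio of 0.691 (0.493 to 0.959) in set 2, and 0.750 (0.279 to 1.74) in set 1.

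After induction of miR-200, 3 of 31 Eif genes had at least 2-fold higher RPM than in uninduced cells, against 3.11% of all genes, and 1 had at least 2-fold lower RPM, against 2.13%. The higher ones were Eif4enif1 (34 reads in induced and 8 in uninduced; 3.18, 1.45 to 7.96), Eif3m (15 and 5; 2.25, 0.777 to 7.91) and Eif4ebp1 (38 and 14; 2.03, 1.08 to 4.06). Eif4ebp1 was under the fold with each position counted once (1.82) and just under it over protein-coding reads (1.996). Eif3m had fewer than 20 reads with each position counted once, without the 7 miRNAs and without reads shared between pools of the set. Eif4a2, a helicase gene, was past the fold without targets in noncoding genes (2.05, against 1.34 with them). The lower one was Eif3f (11 and 21; 0.393, 0.171 to 0.852). The median was 1.10, against 1.03 over all genes. This comparison and that of set 2 DKO share the uninduced pool, in which Eif4enif1 had only 8 reads.

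**Figure D4:**
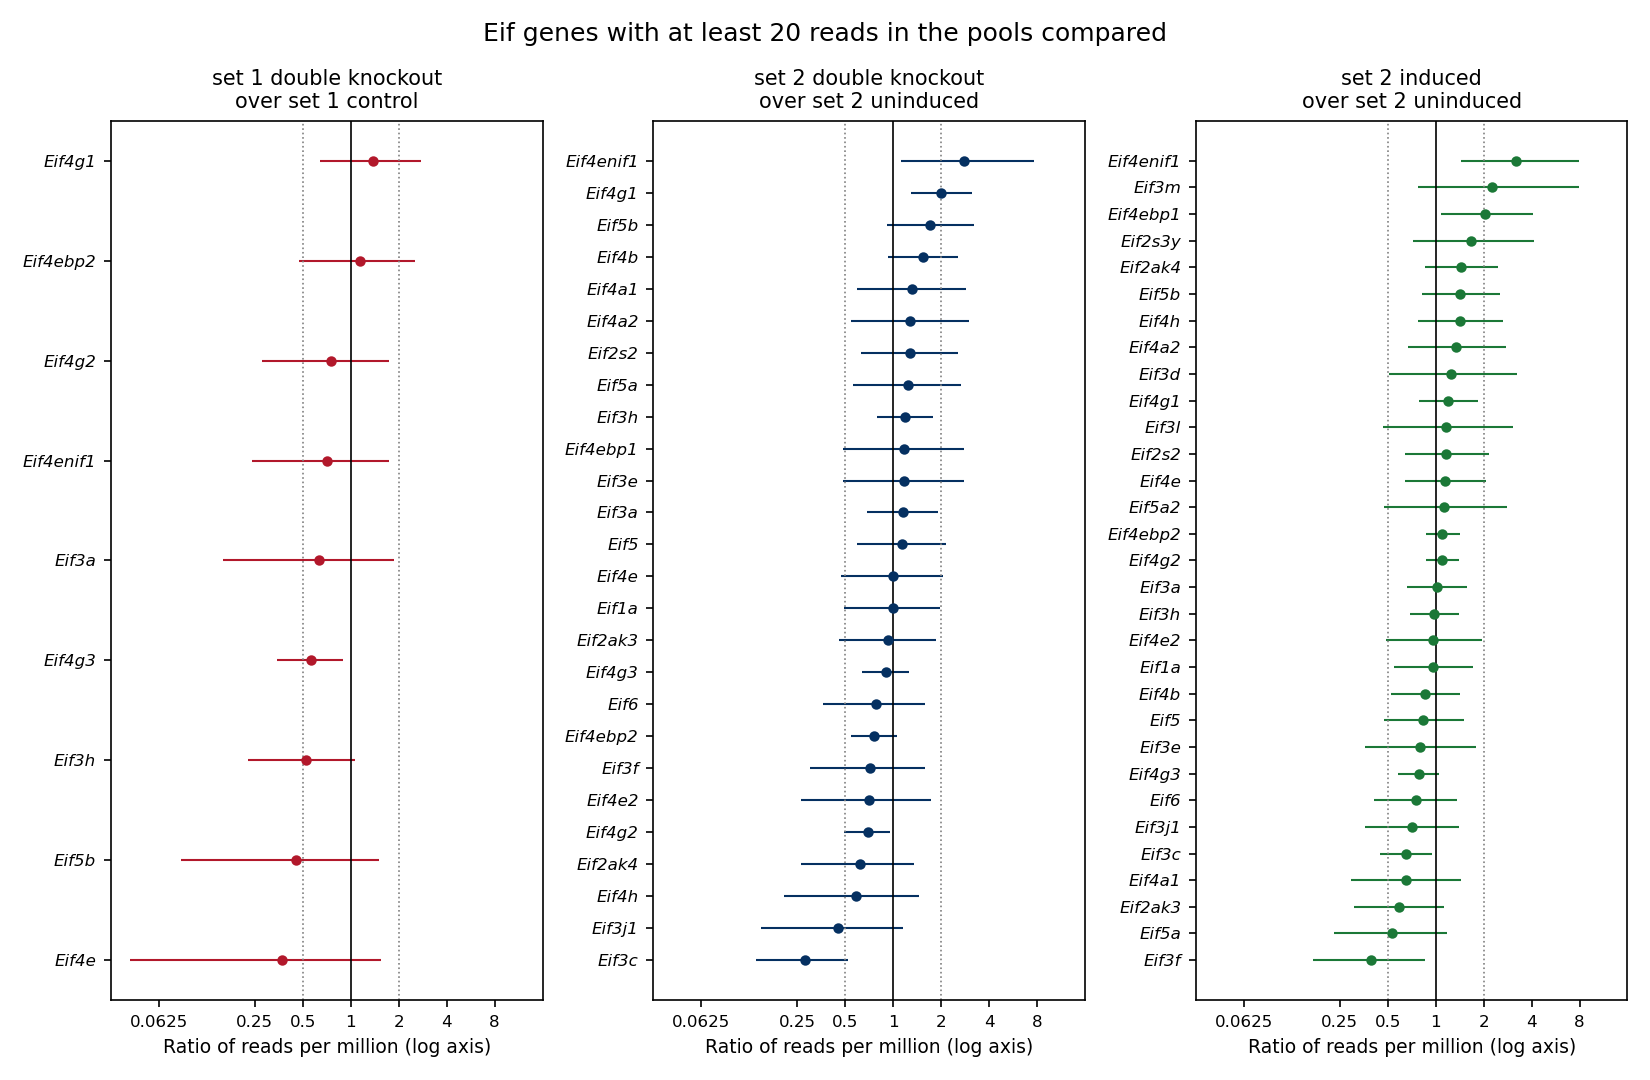
Ratio of RPM (log axis) for the Eif genes with at least 20 reads in the 2 pools compared, with exact 95% counting intervals; dotted lines mark 0.5 and 2. Points past the dotted lines number 2 of 9 in set 1 DKO, 4 of 26 in set 2 DKO and 4 of 31 in the induced pool.

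The miR-200 family itself was nearly absent from Eif genes in DKO. It had 0 of 119 Eif reads in set 1 DKO, with an exact interval of 0 to 3.05%, against 19 of 569 (3.34%, 2.02 to 5.17) in set 1 control. It had 5 of 660 (0.758%; 0.246 to 1.76) in set 2 DKO, 128 of 1398 (9.16%; 7.70 to 10.8) in set 2 induced and 101 of 1043 (9.68%; 7.96 to 11.6) in set 2 uninduced. All 5 reads in set 2 DKO had such a copy in the induced or uninduced pool. The shares on other protein-coding genes were 0.167%, 3.62%, 0.389%, 9.99% and 7.42% in the same order.

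Family reads on Eif genes came to 305 RPM in induced and 322 RPM in uninduced cells, a ratio of 0.950 (0.726 to 1.25). On other protein-coding genes the same ratio was 1.37 (1.35 to 1.40). The intervals do not overlap, and the difference was not tested. By member, miR-200c-3p had 28 Eif reads in induced and 43 in uninduced cells (ratio 0.488, 0.292 to 0.804), against a ratio of 1.05 (1.02 to 1.08) on other genes. Eif4g2 held 7 and 17 of these Eif reads. Without it the miR-200c-3p ratio was 0.605 (0.324 to 1.12), an interval that includes 1. miR-200b-3p had 38 and 16 (1.78, 0.969 to 3.42), against 2.55 (2.44 to 2.67), and miR-429-3p had 19 and 6 (2.37, 0.911 to 7.26), against 2.31 (2.15 to 2.47). miR-141-3p had 37 and 33 (0.840, 0.511 to 1.39), against 0.985 (0.952 to 1.02), and miR-200a-3p had 5 and 3 (1.25, 0.243 to 8.04), against 2.14 (1.96 to 2.33).

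**Figure D5:**
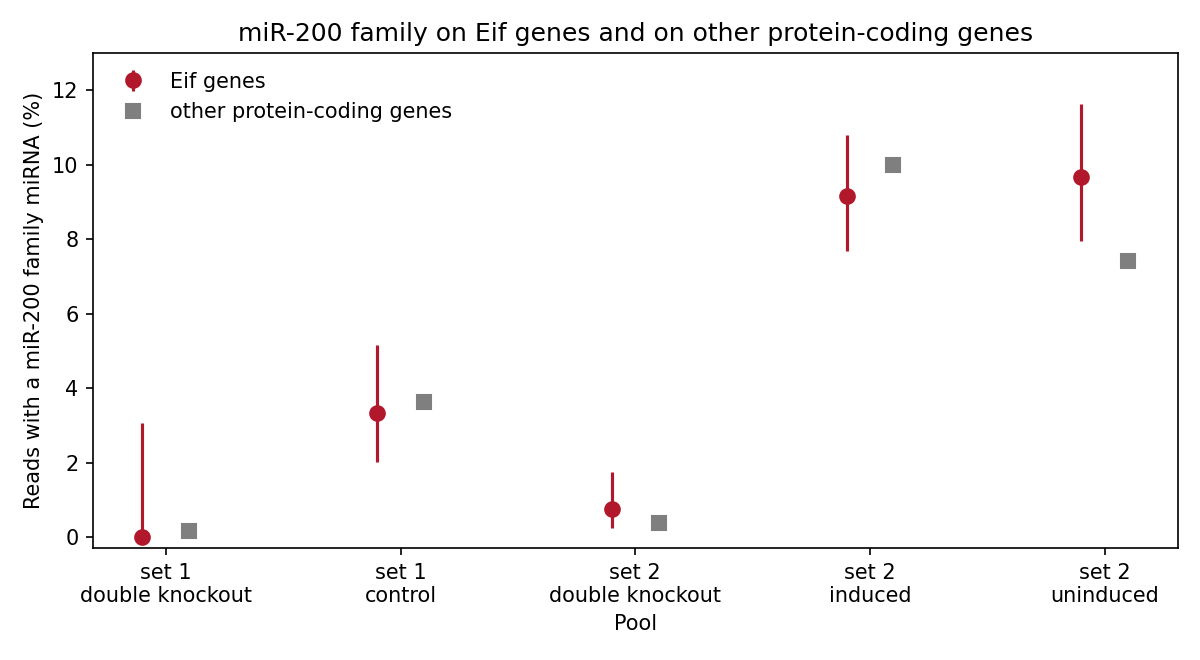
Share of reads that carried a miR-200 family miRNA (vertical axis, percent) on Eif genes, with exact 95% counting intervals, and on other protein-coding genes, by pool. On Eif genes the share was 9.16% in induced and 9.68% in uninduced cells, and on other genes 9.99% and 7.42%.

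Eif4g2 held 74 of the family's reads on Eif genes: 0 in set 1 DKO, 1 in set 1 control, 2 in set 2 DKO, 43 in set 2 induced and 28 in set 2 uninduced. Of these, 60 had the seed of miR-200b and 14 that of miR-200a. The next genes were Eif4g3 with 18 family reads, Eif3h with 16, and Eif3j1 and Eif4ebp2 with 12 each. At the deepest Eif4g2 site the family had 55 reads in 46 combinations, with 0 in set 1 DKO, 1 in set 1 control, 1 in set 2 DKO, 32 in set 2 induced and 21 in set 2 uninduced. Under the overlap of at least 10 bases, 38 family reads lay in chr7:111072043-111072411 and 17 in chr7:111071940-111072049.

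Of the 4 other sites with at least 5 family combinations, the Eif4g2 site with miR-141 had 5 and 4 family reads in induced and uninduced cells and 0 in both DKO pools. The miR-31 site of Eif4ebp2 had 3 and 3. A site of Eif3c at chr7:126547605-126547655 had 9 reads, 7 of them with the miR-200a seed, of which 1 came from set 1 control and 3 each from induced and uninduced cells. A site of Eif5a2, a relative of Eif5a, at chr3:28796678-28796775 had 7 reads, 5 of them with the miR-200b seed and all 5 from induced cells. All 31 reads of Eif5a2 also lay within the span of the lncRNA gene Gm32950, 30 of them on the strand assigned to Eif5a2. The strand of Gm32950 was not analysed here, so it is open which of the 2 genes the reads came from.

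Genes that work with the initiation factors but carry other symbols were counted on 2 lists. All 23 listed initiation partners had reads (2752 in all), as did 13 of 17 elongation and termination factors (1148). In set 1 DKO, 1 of 7 partners and 1 of 4 elongation and termination factors with at least 20 reads were at least 2-fold higher and 0 were lower, against 8.26% higher and 17.6% lower of all protein-coding genes; they were Ddx3x and Abce1, a ribosome recycling factor (ratio 2.77, 1.07 to 6.99). In set 2 DKO the counts were 1 higher and 1 lower of 11 partners, and 0 higher and 1 lower of 9 factors, against 9.57% and 11.2%. They were Ddx3x, Cyfip1, which binds eIF4E (0.437, 0.248 to 0.738), and Eef2k, the kinase of an elongation factor (0.408, 0.172 to 0.871). After induction they were 1 higher and 0 lower of 15, and 0 and 0 of 10, against 3.11% and 2.13%, the 1 being Abcf1 (2.25, 0.777 to 7.91). Abce1 and Abcf1, with 22 and 20 reads, each fell below 20 under some alternatives. Abce1, Cyfip1, Eef2k and Abcf1 were named after their values were seen. The median ratios in these 3 comparisons were 1.03, 1.02 and 1.20 for partners and 1.06, 0.884 and 0.954 for the factors.

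Ddx3x, an RNA helicase that helps initiation on structured mRNAs, was past the fold in both DKO sets, as were 0.624% of protein-coding genes in the same direction. It had 15 reads in set 1 DKO and 13 in set 1 control (308 against 80.4 RPM; ratio 3.83, 1.70 to 8.76), and 67 in set 2 DKO, 56 in set 2 induced and 49 in set 2 uninduced (319, 134 and 156 RPM). Its set 2 DKO ratio was 2.04 (1.39 to 3.02), or 1.99 over protein-coding reads, and its induced ratio 0.856 (0.573 to 1.28). Its leading miRNA was miR-31 with 35 of 200 reads.

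Paip1, which binds the poly(A)-binding protein, had 491 reads, 207 of them with miR-17-5p. Its DKO ratio was 1.57 (1.12 to 2.19) in set 1, with 54 reads in DKO and 114 in control, and 0.539 (0.381 to 0.752) in set 2, with 49 and 136. The ratios of the 2 sets thus lay on opposite sides of 1. Ppp1r15b, a subunit of the phosphatase that reverses the eIF2 kinases, had 443 reads, 102 of them with miR-205-5p, and a ratio of 1.34 (1.05 to 1.70) after induction. Larp1, which binds mRNAs of the translation machinery, had 407 reads, with ratios of 0.715 (0.469 to 1.06) in set 1 DKO and 1.54 (1.09 to 2.18) in set 2 DKO. The termination factor Etf1 had 197 reads, 56 of them with miR-3470a, Hbs1l, a ribosome rescue factor, had 165 and Eefsec, the selenocysteine elongation factor, had 161; for all 3 the interval included 1 in each comparison.

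Where the strand of the gene was given by RefSeq, 99.4% of 2830 Eif reads lay on it, against 97.9% on other protein-coding genes. Of these 2830 Eif reads, 35.7% (34.0 to 37.5) lay in the last 25% of the gene's span, introns included. On other protein-coding genes with a RefSeq strand it was 39.6% (39.5 to 39.7). Without Eif4ebp2 the Eif share was 28.6%. Eif4g2 and Eif3h, whose strand was taken from their reads, entered neither these shares nor those by pool. By pool the share was 25.0% in set 1 DKO, 22.6% in set 1 control, 36.5% in set 2 DKO, 41.4% in set 2 induced and 36.6% in set 2 uninduced. Other genes had 36.4%, 28.2%, 38.0%, 42.9% and 42.6%.

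Some counts depend on the annotation. Reads within noncoding genes inside an Eif gene made up 34.7% of Eif4a1, 22.2% of Eif4a2, 17.3% of Eif5b and 14.7% of Eif4g2; 88 reads lay in 7 snoRNA genes and 53 in 3 lncRNA genes. Eif4a1, Eif4a2, Eif3j1 with Eif3j2, and Eif2s3x with Eif2s3y have close copies, so their counts are uncertain: the mapping of reads that fit 2 copies is not described in the sources used here.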

How the data were processed

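CLEAR-CLIP libraries of 5 groups were analysed. The tools named in the submitters' processing notes are cutadapt, bedtools and Novoalign, with the build mm10 and no versions. The deposited values are neither counts nor a signal but positions: per the file headers, each entry is 1 chimeric read with target start, end and strand, a 4-base barcode and a miRNA. Start was taken to count from 0. In the deposited files no entry repeats position, strand, miRNA and barcode.

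Target midpoints were assigned to RefSeq gene spans of the same build (Python 3.11.15, pandas 2.3.3, scipy 1.17.1). RefSeq's promoter table gave the strand of 44 Eif genes; 11 others took the strand of most reads. Shares have Clopper-Pearson intervals and ratios conditional exact intervals, all at 95%. Only the ratio intervals and fold calls were run on simulated counts. Those counts held counting error alone, as the intervals assume, so the run cannot show how they hold when libraries vary. A gene was past the fold at a ratio of at least 2 or at most 0.5 with at least 20 reads in the compared pools. The limit for 0 reads is 3 reads.

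The genes, lists and rules were chosen with earlier results of these data known. Eif genes with at least 100 reads are named, with the 3 leading genes of each partner list and any gene past the fold in both DKO sets. Also named are the 10 miRNAs with the highest mean share, the miRNA leading each named gene and any past the fold in all 5 pools. Sites named are the 10 deepest and those with at least 5 miR-200 combinations. Others were named after their values were seen. Alternatives are described in the closing section.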

Additional observations from a re-analysis of the deposited data

Results flagged for a closer look

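Eif pseudogenes held 23 reads outside protein-coding genes: of 11 pseudogenes, Eif4a-ps4 had 10, Eif3s6-ps2 had 9, Eif5al3-ps had 3 and Eif3s6-ps1 had 1. By pool these were 0 in set 1 DKO, 0 in set 1 control, 2 in set 2 DKO, 16 in set 2 induced and 5 in set 2 uninduced. On Eif genes of known strand, 17 of 2830 reads lay on the opposite strand. A further 98 reads lay in an Eif gene and in another protein-coding gene, 57 of them in Eif5b, 33 in Eif2d, 7 in Eif2ak1 and 1 in Eif4a2. None of these entered a comparison, except that the antisense reads stayed in the genes' counts.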

How the results depend on the processing

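No paired analysis was possible because the deposited files pool the libraries of a group with no library name; for the same reason no library could be left out. Of 647 alternative values, 102 answering a comparison stayed within their limits and 38 moved; among values of single genes and miRNAs 499 stayed, 7 moved and 1 turned. For shares and ratios the limits are the counting intervals, which are wide where reads are few. In set 2 no Eif read name starts with a > sign, so leaving such reads out could change little there. The number that stayed is therefore no measure of robustness. The Eif share ratio of all 3 comparisons stayed within its limits under every alternative run. Counts past the fold were small and moved easily. For genes higher in set 2 DKO (2) the count was 1 with at least 50 reads, 0 with each position counted once, 4 at a fold of 1.5, 1 over protein-coding reads and 1 without the 7 miRNAs. For genes higher after induction (3) it was 1 with at least 50 reads and 1 with each position once. For genes lower in set 1 DKO (2) it was 0 with at least 50 reads, 0 with each position once, 5 at a fold of 1.5, 1 without the set 1 reads whose names start with a > sign and 1 without noncoding targets. For genes lower in set 2 DKO (2) it was 1 with at least 50 reads and 4 at a fold of 1.5; for genes lower after induction (1), 0 and 5. Without reads shared between pools of the set, the ratio of family reads on Eif genes in set 2 DKO over uninduced was 0 (0 to 0.0571), against 0.0740. In the order set 1 DKO, set 1 control, set 2 DKO, induced, uninduced, the Eif share was 0.325%, 0.455%, 0.399%, 0.427% and 0.434% of protein-coding reads, and 0.199%, 0.272%, 0.287%, 0.310% and 0.302% without Eif4g3. Leaving out set 1 DKO in that order, it was 0.405%, 0.342%, 0.356% and 0.367% with each position once, and 0.387%, 0.353%, 0.380% and 0.381% without targets in noncoding genes. Without Eif4ebp2, added after seeing the data, it was 0.287%, 0.293% and 0.296% in set 2 DKO, induced and uninduced. The ratio of miR-3470b on Eif genes over other genes in set 1 DKO was 0.988 without Eif4g3, the gene with the most reads, against 2.21. Eif4g3 held 7 of the 11 miR-3470b reads on Eif genes in that pool, and why they lay there was not tested. Depth limits most single genes, since in set 1 DKO 3 reads are 0.00616% of the pool.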
